A study of Mus musculus with 10 samples.

Results

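The Dlx homeobox genes, Dlx1 to Dlx6, were followed through incisor development in single-cell RNA profiles of wild-type NMRI mouse embryos of 3 ages, namely E11.5, E14.5 and, last, E16.5. They are 6 of the 32285 genes that were counted, and all 6 were found by their symbols in the gene list of each stage. Whole mandibles were taken at E11.5 and the lower incisor bud alone on both later days, from more than 1 litter at each stage, and by the study's methods they went through cell isolation separately. The labels name 4, 4 and 2 samples for these days, but each stage was deposited as 1 matrix whose barcodes carry no sample name. Each stage is therefore 1 sample here, no test between stages was possible, and developmental stage, dissection and sample cannot be told apart.

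Dlx genes are the vertebrate relatives of the fly gene Distal-less and encode transcription factors that bind DNA through a homeodomain. In the mesenchyme that neural crest cells form in the first pharyngeal arch, Dlx1 and Dlx2 are known to be expressed broadly, Dlx5 and Dlx6 in the lower jaw part, and Dlx3 and Dlx4 nearest its tip, and this nested code gives upper and lower jaw their identity. Dlx5 and Dlx6 act below endothelin signalling in the lower jaw, Dlx1 and Dlx2 together are needed for upper molars, and Dlx3 and Dlx5 are also known from bone, dentine and enamel.

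The genes lie in 3 linked pairs of opposite orientation, whose members share enhancers between them. Coordinates are those of GENCODE vM21 on GRCm38, the assembly that mm10, the build of the counts, is drawn from. On chromosome 2, Dlx1 (ENSMUSG00000041911) occupies chr2:71528113-71533981 on the plus strand and Dlx2 (ENSMUSG00000023391) chr2:71543408-71546754 on the minus strand, with 9426 bases between them. On chromosome 11, Dlx3 (ENSMUSG00000001510) occupies chr11:95120119-95125296 on the plus strand and Dlx4 (ENSMUSG00000020871) chr11:95140447-95146263 on the minus strand, with 15150 bases between them. On chromosome 6, Dlx6 (ENSMUSG00000029754) occupies chr6:6863334-6868568 on the plus strand and Dlx5 (ENSMUSG00000029755) chr6:6877805-6882085 on the minus strand, with 9236 bases between them. Each gene thus points towards its partner.

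The homeobox, the stretch that encodes the DNA-binding homeodomain, is what the 6 genes share, and it is shown for all of them because the members are compared pair by pair. Each is 180 bases, or 60 codons, of which 132 bases lie in coding exon 2 and 48 in exon 3 of a 3-exon transcript. The exon 2 parts are chr2:71531025-71531156 for Dlx1, chr2:71545384-71545515 for Dlx2, chr11:95121767-95121898 for Dlx3, chr11:95141789-95141920 for Dlx4, chr6:6879526-6879657 for Dlx5 and chr6:6865140-6865271 for Dlx6. The exon 3 parts are chr2:71532264-71532311 for Dlx1, chr2:71544877-71544924 for Dlx2, chr11:95123409-95123456 for Dlx3, chr11:95141422-95141469 for Dlx4, chr6:6878441-6878488 for Dlx5 and chr6:6867041-6867088 for Dlx6. They are written in the direction of transcription, and capitals mark bases that differ from the linked gene.
Dlx1: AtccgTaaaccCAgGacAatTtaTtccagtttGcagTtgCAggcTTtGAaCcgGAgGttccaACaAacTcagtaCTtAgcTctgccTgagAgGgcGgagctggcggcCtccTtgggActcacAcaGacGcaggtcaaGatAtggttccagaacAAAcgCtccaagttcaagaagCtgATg
Dlx2: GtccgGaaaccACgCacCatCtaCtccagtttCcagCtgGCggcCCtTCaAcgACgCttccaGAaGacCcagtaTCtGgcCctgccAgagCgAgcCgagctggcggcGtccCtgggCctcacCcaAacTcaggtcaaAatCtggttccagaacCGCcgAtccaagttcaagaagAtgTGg
Dlx3: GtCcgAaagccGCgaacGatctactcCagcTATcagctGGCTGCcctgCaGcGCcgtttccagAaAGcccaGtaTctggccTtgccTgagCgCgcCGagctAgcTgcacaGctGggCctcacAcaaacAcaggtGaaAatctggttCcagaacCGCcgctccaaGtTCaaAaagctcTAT
Dlx4: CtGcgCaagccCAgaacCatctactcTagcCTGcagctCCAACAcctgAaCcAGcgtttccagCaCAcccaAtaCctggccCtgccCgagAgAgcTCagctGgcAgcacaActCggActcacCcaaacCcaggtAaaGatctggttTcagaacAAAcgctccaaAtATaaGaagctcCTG
Dlx5: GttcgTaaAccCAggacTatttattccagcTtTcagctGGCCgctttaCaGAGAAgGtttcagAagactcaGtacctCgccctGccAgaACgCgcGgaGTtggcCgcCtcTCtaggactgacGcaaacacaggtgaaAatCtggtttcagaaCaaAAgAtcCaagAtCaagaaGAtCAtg
Dlx6: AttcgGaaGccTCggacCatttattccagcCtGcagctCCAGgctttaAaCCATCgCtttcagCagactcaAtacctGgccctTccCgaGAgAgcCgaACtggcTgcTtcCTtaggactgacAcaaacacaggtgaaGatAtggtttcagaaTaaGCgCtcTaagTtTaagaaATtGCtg

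Linked genes differed at 47, 51 and 48 of the 180 bases, which leaves 73.9% of bases identical between Dlx1 and Dlx2, 71.7% between Dlx3 and Dlx4 and 73.3% between Dlx5 and Dlx6. By bases the closest homeoboxes were not those of linked genes: Dlx2 and Dlx3 were identical at 81.7%, and the lowest identity, 66.1%, was that of Dlx3 and Dlx6. By the residues that the codons encode the order was another one, with Dlx1 and Dlx6 the closest (58 of 60) and Dlx2 and Dlx4 the lowest (47 of 60).

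After the filter on cells (at least 700 genes and at most 20% mitochondrial UMIs; a UMI is a tag that marks 1 captured RNA molecule), 6573, 6091 and 4511 cells remained in order of age, with a median of 5664, 3471 and 6260 UMIs. All barcodes of a stage together held 49264075, 31670249 and 42895059 UMIs. Cells were clustered without the Dlx genes and named from marker lists. The mesenchyme-like class, called mesenchyme hereafter, held 6116, 4617 and 2531 cells and had UMIs of 8, 9 and 10 of its 10 markers in at least 10% of its cells. The epithelium-like class held 994 and 1763 cells at E14.5 and E16.5, with 9 and 10 of 10 markers. No epithelial cluster was found at E11.5, where 13 cells carried 3 or more epithelial markers, so the epithelium of that stage is not described. Between 13 and 17 barcodes were shared by any 2 stages.

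A level below is the UMI count of a gene added up over a group of cells and scaled to the UMI total of those cells (CPM), with a 95% Poisson interval, and a share is the percentage of cells with a UMI after each cell was thinned to 2000 UMIs, with shallower cells left out (749, 881 and 213 of the 3 stages). Intervals cover counting error only, not the spread between embryos. RNA free in the droplets can put UMIs of a gene into cells that lack it, so a floor was read from other classes. In endothelium-like and immune-like cells, which are not known to use this code and had median depths of 3515 to 10058 UMIs, the highest level of any Dlx gene was 16 CPM at E11.5 and 7.38 CPM at E14.5, both for Dlx5, and 23 CPM at E16.5, for Dlx2. Barcodes named erythroid-like held more: 24.3 CPM of Dlx5 at E11.5 and 31.2 at E14.5. At E16.5 the 42 erythroid-like barcodes, which were split from an epithelial cluster, had 83.1 CPM of Dlx5 and 57.4 CPM of Dlx2. Values at or under those of the same gene in these classes are read as background, and a value that lies above them but whose interval overlaps that of the erythroid-like barcodes of its stage is given as not clear of it. The part of free RNA in any level was not tested.

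In the mesenchyme the linked genes did not all move in step from stage to stage. Dlx1 and Dlx2 are the broad members of the code. Through the 3 stages Dlx1 was at 36.6 CPM (95% interval 34.8 to 38.4), 6.39 (5.27 to 7.68) and 90.1 (85.8 to 94.5), whereas Dlx2 was at 37.9 (36.1 to 39.8), 44.9 (41.8 to 48.1) and 79.1 (75.1 to 83.2). The 2 genes were thus alike at E11.5, where their intervals overlapped, and far apart at E14.5. The E14.5 level of Dlx1 lay within the interval of the erythroid-like barcodes (5.58 CPM, 1.81 to 13), so the mesenchyme as a whole was not clear of background for this gene, while Dlx2 was above its own value there (20.1 CPM, 11.9 to 31.7). At E16.5 Dlx1 was clear of the erythroid-like barcodes (25.7 CPM, 13.7 to 44.0), and the interval of Dlx2 overlapped theirs (57.4 CPM, 38.4 to 82.4).

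Dlx5 and Dlx6, the lower jaw members, were both high at E11.5 and both lower at E14.5, and then parted. Dlx5 was at 102 CPM (99.5 to 105), 49.1 (45.9 to 52.5) and 145 (139.5 to 150.5). Dlx6 was at 61.3 CPM (59.0 to 63.7), 16 (14.2 to 17.9) and 17.2 (15.3 to 19.2), and its intervals at E14.5 and E16.5 overlapped. In erythroid-like barcodes Dlx6 was at 4.46 CPM at E14.5 (1.22 to 11.4) and 7.92 at E16.5 (2.16 to 20.3), so the E16.5 level was not clear of background. A UMI of Dlx6 was found in 9.94%, 3.46% and 2.81% of thinned cells (27.9%, 5.89% and 10.9% of unthinned cells), against 17.7%, 8.21% and 24.1% for Dlx5.

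Dlx3 and Dlx4, the members of the arch tip, were low at E11.5 and had their highest level at E16.5. Dlx3 was at 10.2 CPM (9.28 to 11.2), 13.5 (11.9 to 15.3) and 62.6 (59.1 to 66.3), and Dlx4 at 3.11 (2.61 to 3.68), 7.62 (6.4 to 9.02) and 42.2 (39.3 to 45.2). The erythroid-like barcodes held 10.0 CPM of Dlx3 at E14.5 (4.59 to 19.1) and 1.12 CPM of Dlx4 (0.0283 to 6.22), so that at this stage Dlx4 but not Dlx3 was clear of them. At E11.5 they held 5.07 CPM of Dlx3 (1.65 to 11.8) and 1.01 of Dlx4 (0.0257 to 5.65), and neither gene was clear of them in the mesenchyme as a whole. At E16.5 they held 27.7 CPM of Dlx3 (15.1 to 46.5) and 13.9 of Dlx4 (5.57 to 28.5), and both genes were clear of them.

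**Figure D1:**
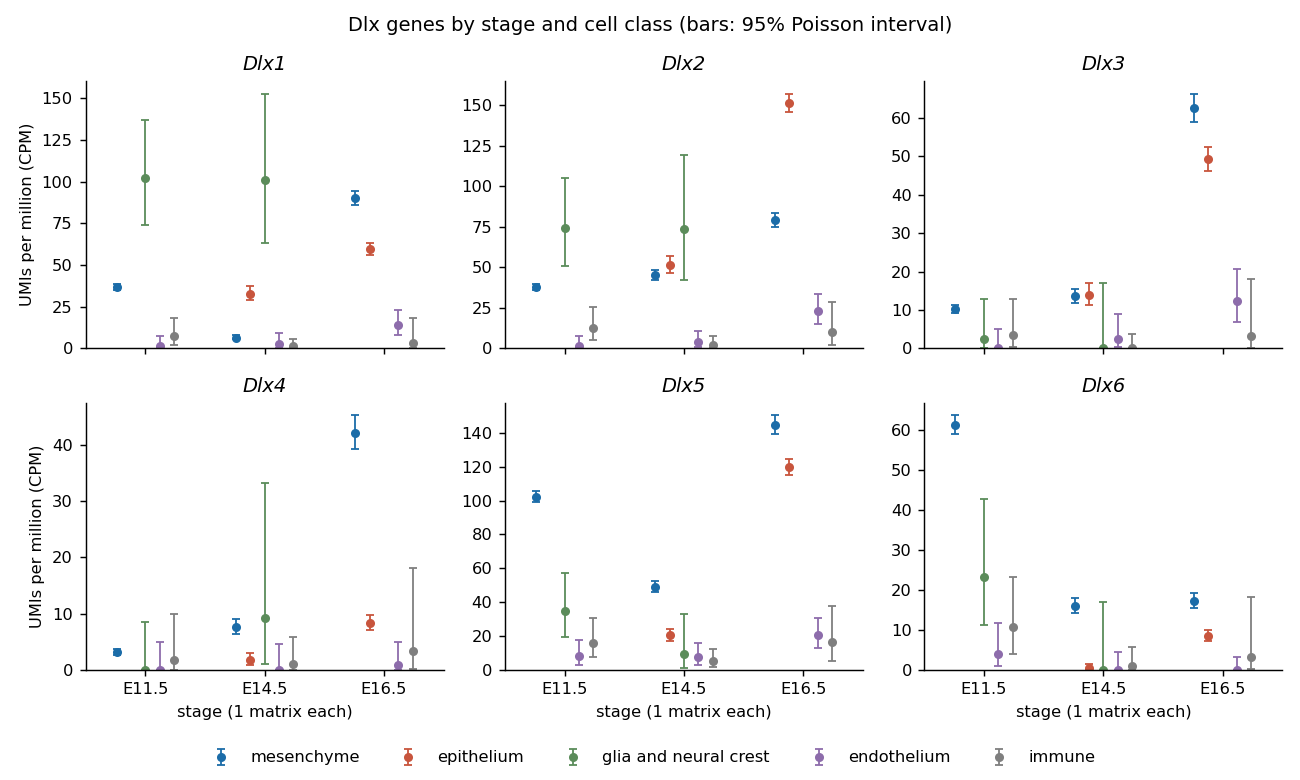
Levels of the 6 Dlx genes (vertical axes, CPM, each with its own scale from 0) at the 3 stages in mesenchyme, epithelium, glia and neural crest, endothelium and immune cells; points are summed counts and bars 95% Poisson intervals. In the mesenchyme Dlx1 dips to 6.39 CPM at E14.5 between 36.6 and 90.1, and Dlx6 stays near 16 to 17.2 CPM from E14.5 on while Dlx5 goes from 49.1 to 145.

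For the ratios between groups 10 CPM were added to both sides, which understates the change of low genes, and a gene was counted as past 2-fold when it had at least 50 UMIs in both groups together. From E11.5 to E14.5, 2 of the 6 genes were more than 2-fold lower in the mesenchyme, Dlx1 at a log2 ratio of -1.51 (-1.62 to -1.39) and Dlx6 at -1.46 (-1.57 to -1.34). Over all 12781 genes compared, 1.91% were 2-fold lower, and 2.8% higher. Dlx5 stood just short of the limit at -0.93 (-1.02 to -0.84), and passed it, also at -1.02, with each cell thinned to 2000 UMIs, while Dlx2, Dlx3 and Dlx4 were at 0.20, 0.22 and 0.43. Thinning stops deep cells from weighing more. With it the ratio of Dlx2 turned to -0.11, and the intervals of Dlx3 (0.07, -0.15 to 0.28) and Dlx4 (0.17, -0.02 to 0.37) spanned 0, so no order of these stages is read for the 3 genes. The median of the members was -0.37, against -0.09 for all genes.

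From E14.5 to E16.5, 4 of the 6 genes were more than 2-fold higher in the mesenchyme, against 1.22% of 12242 genes, and none was lower, against 0.376%. The log2 ratios were 2.61 (2.48 to 2.73) for Dlx1, 1.63 (1.5 to 1.75) for Dlx3, 1.57 (1.43 to 1.70) for Dlx4 and 1.39 (1.30 to 1.49) for Dlx5. Dlx2 was at 0.70 (0.59 to 0.80), and Dlx6 at 0.06, with an interval of -0.08 to 0.21. The median of the members was 1.48, against 0.08 for all genes.

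Over the mesenchymal clusters of E11.5, the levels of Dlx1, Dlx2 and Dlx3 had a wider fold range than those of Dlx5 and Dlx6. Dlx3 was clear of the erythroid-like barcodes only in its highest cluster (17.6 to 22.2 CPM, against 1.65 to 11.8). Dlx4 was not clear of them (0.0257 to 5.65 CPM) in any cluster, so no split is read for it. The cluster led by Nr2f1, Emx2 and Sox9 (1497 cells) had the highest level of every member: 60.9 CPM of Dlx1, 60.6 of Dlx2, 19.8 of Dlx3, 6.26 of Dlx4, 127 of Dlx5 and 83.5 of Dlx6. For Dlx4 and Dlx5, and in the smallest cluster (110 cells) for every member, the interval of another cluster overlapped. The cluster led by Pax3, Msx1 and Msx2 (847 cells) kept Dlx5 at 116 CPM (109 to 123) and Dlx6 at 63.6 (58.6 to 69.0), yet had 14 CPM of Dlx1, 15.9 of Dlx2, 1.19 of Dlx3 and 0.325 of Dlx4. Its Dlx3 and Dlx4 were no higher than in immune-like cells of the stage (3.56 and 1.78 CPM), and its Dlx1 and Dlx2 were not clear of the erythroid-like barcodes (9.13 CPM, 4.17 to 17.3, and 13.2 CPM, 7.02 to 22.5). Cells led by Plagl1, Cited1 and Foxf1 (1156 cells) were low for all: 12.8 CPM of Dlx1, 3.88 of Dlx3, 0.470 of Dlx4, 37.8 of Dlx5 and 27.9 of Dlx6, with Dlx2 in an interval of 13.8 to 19.4. Of these, only Dlx6 was clear of the erythroid-like barcodes. The cluster led by Igfbp5 and Shox2 (1309 cells) lay between, with 42.4 CPM of Dlx1, 44.6 of Dlx2 and 116 of Dlx5. The other 2 clusters were led by globin RNA and had shallow cells, with 88.0 and 98.8 CPM of Dlx5.

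At E14.5 one cluster carried most of Dlx1 to Dlx4. It was led by Crym, Egr3, Lgals7 and Fgf3 (1257 cells), and Dlx2 itself was among its 5 leading genes although it had been kept out of the clustering. There Dlx2 was at 103 CPM (95.9 to 111), Dlx3 at 26.4 (22.8 to 30.4) and Dlx4 at 15.5 (12.7 to 18.6), while Dlx1, the partner of Dlx2, was at 13.1 (10.6 to 16.1), which was not clear of the erythroid-like barcodes. In the clusters led by Ibsp and Sfrp4, genes of bone-forming cells (1452 cells), by mitotic genes (714 cells), by Sst and Ccnd1 (574 cells) and by Osr1 and Ebf2 (523 cells), Dlx2 was at 2.90 to 4.55 CPM, Dlx1 at 0.724 to 1.92 and Dlx4 at 0 to 3.11. Their intervals overlap those of the endothelium-like cells or the erythroid-like barcodes of the stage. The Crym cluster held 841 of the 915 UMIs of Dlx1 and Dlx2 in the mesenchyme, and 303 of the 377 UMIs of Dlx3 and Dlx4. Dlx5 was at 45.8 (39.5 to 52.7), 40.8 (34.2 to 48.4) and 35.9 CPM (27.4 to 46.4) in the first 3 of them, against 65.9 (60.2 to 72.1) in the Crym cluster, and at 6.51 in the Osr1 cluster. Of these only the Crym cluster was clear of the erythroid-like barcodes (31.2 CPM, 20.8 to 45.2). Dlx6 was about level between the Crym cluster (15.5 CPM) and the bone-like and mitotic ones (20.6 and 17.6). A cluster of 97 cells led by mitochondrial RNA was left to the summed values, with 68.2 CPM of Dlx2.

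At E16.5 Dlx1, Dlx2, Dlx3 and Dlx4 followed each other across the 4 mesenchymal clusters. The cluster led by Lypd1, Col8a1 and Smoc2 (614 cells) was the highest for all 4, with 252 CPM of Dlx1 (236 to 269.7), 144 of Dlx2 (131 to 157), 109 of Dlx3 (97.7 to 120.2) and 78.4 of Dlx4 (69.2 to 88.4). The cluster led by Sfrp4, Pdzrn4 and Maf (868 cells) was the lowest, with 14.4 CPM of Dlx1, 22.7 of Dlx2, 22.8 of Dlx3 and 16.4 of Dlx4. Its Dlx1, Dlx2 and Dlx3 were under the values of the erythroid-like barcodes (25.7, 57.4 and 27.7 CPM), so for these genes the low end of the range is background. Its Dlx4 was above theirs (13.9 CPM) but not clear of it. Between them stood the mitotic cluster led by Nusap1 and Top2a (584 cells; 51.5, 77.2, 67.3 and 42.5 CPM of Dlx1 to Dlx4) and the cluster led by Gldn, Rspo2 and Tac1 (465 cells; 129, 111, 72.7 and 47.2 CPM). The Dlx2 of the mitotic cluster was not clear of the erythroid-like barcodes either. Dlx5 spanned less, from 106 CPM (97.5 to 115) in the Sfrp4 cluster, which overlapped them (83.1 CPM, 59.9 to 112), to 189 (175 to 204) in the Lypd1 cluster and 205 (189.5 to 222) in the Gldn cluster. Dlx6 ran the other way: it was at 19.2 and 20.7 CPM in the Sfrp4 and mitotic clusters and at 12.4 and 11.2 in the Lypd1 and Gldn clusters, where Dlx5 was highest. The intervals of the Sfrp4 cluster (15.7 to 23.2) and the Lypd1 cluster (8.95 to 16.8) overlapped for Dlx6, and that of the Gldn cluster (7.78 to 15.5) overlapped the Lypd1 cluster but neither the Sfrp4 nor the mitotic one. None of the 4 clusters was clear of the erythroid-like barcodes for Dlx6.

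Set out by cluster, the ranges of 2 stages were apart for few members. Every E14.5 mesenchymal cluster was below every E11.5 one for Dlx6, as was the case for 7.78% of all genes compared, and no member was above (4.94% of genes). Every E16.5 mesenchymal cluster was above every E14.5 one for Dlx1, Dlx4 and Dlx5, against 4.18% of genes, and none was below (1.26%). For Dlx1 and Dlx4 this rests on close values, 14.4 CPM (11.4 to 18.0) over 13.1 (10.6 to 16.1) and 16.4 (13.2 to 20.2) over 15.5 (12.7 to 18.6), whose intervals overlap. Clusters of a stage come from the same matrix and are not replicates.

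**Figure D2:**
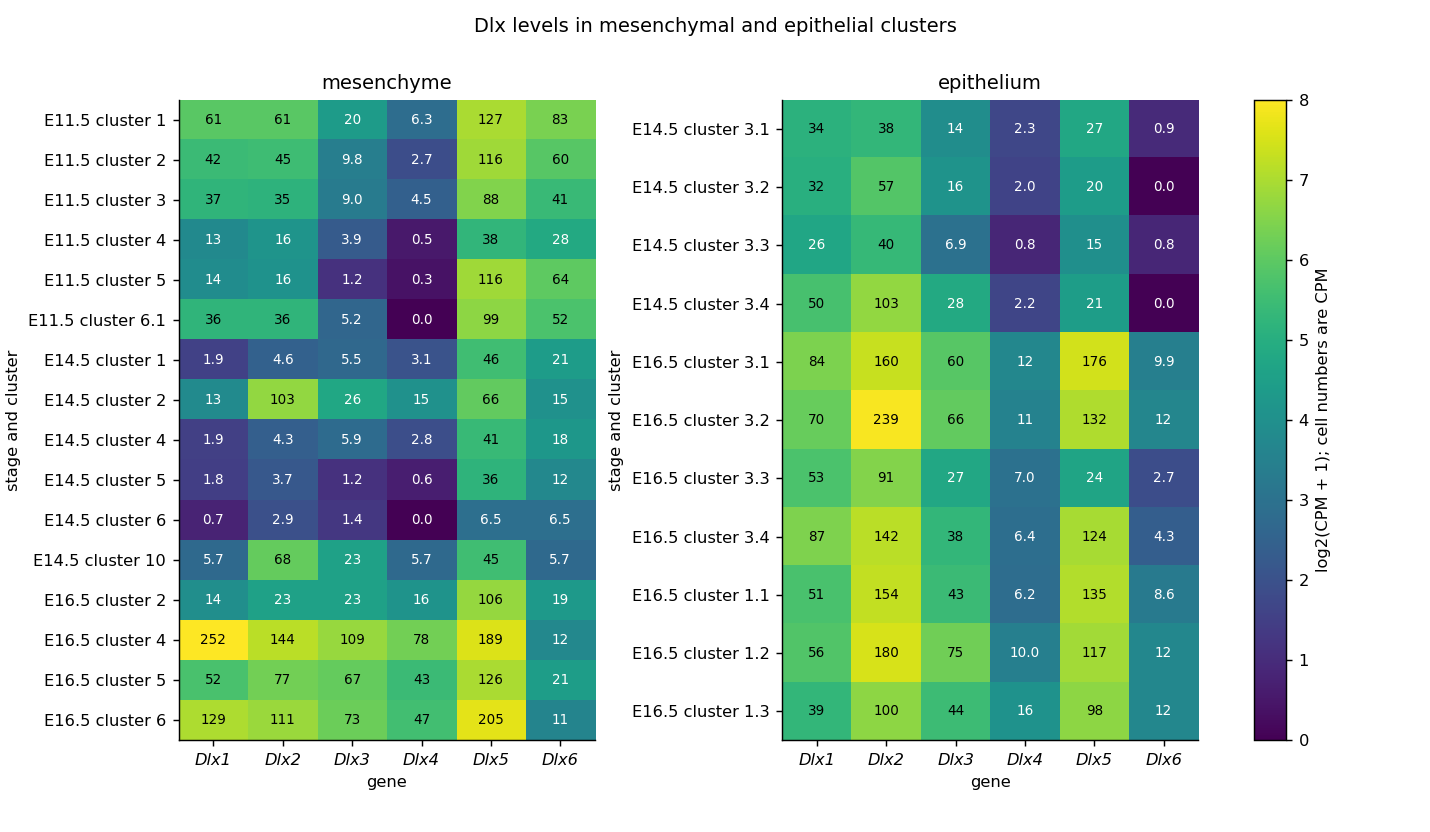
Level of each Dlx gene (columns) in each mesenchymal and epithelial cluster (rows, by stage); the colour is log2(CPM + 1) and the printed number is the CPM. The E14.5 mesenchymal cluster 2 (led by Crym) has 103 CPM of Dlx2 and the shallow cluster 10 has 68.2, against at most 4.55 in the other mesenchymal clusters of that stage, and E16.5 cluster 4 (led by Lypd1) holds 252 CPM of Dlx1.

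In the epithelium, from which enamel-forming cells arise, all 6 genes had a higher CPM at E16.5 than at E14.5. Dlx2 went from 51.3 CPM (46.2 to 56.9) to 151 (146 to 157), Dlx5 from 20.3 (17.1 to 23.9) to 119.8 (115 to 125) and Dlx3 from 13.9 (11.3 to 17.0) to 49.2 (46.1 to 52.5). These were the 3 members past 2-fold, with log2 ratios of 1.40 (1.26 to 1.53), 2.10 (1.93 to 2.27) and 1.31 (1.12 to 1.49), against 1.21% of 11679 genes higher and 0.317% lower. Dlx1 was at 32.8 CPM (28.7 to 37.4) and 59.3 (55.9 to 62.9), a log2 ratio of 0.69. Dlx4 stayed low, at 1.71 CPM (0.881 to 2.98) and 8.29 (7.05 to 9.68). Dlx6 had 4 UMIs in all 994 cells at E14.5, which is 0.569 CPM (0.155 to 1.46), and 8.55 CPM (7.29 to 9.96) at E16.5. After thinning none of 840 epithelial cells at E14.5 held a UMI of Dlx6, which allows a share of up to 0.438%, and 2.12% did at E16.5. The median log2 ratio of the members was 1.06, against 0.09 for all genes. Set beside the erythroid-like barcodes, Dlx5 and Dlx6 at E14.5 (31.2 and 4.46 CPM there) and Dlx4 at E16.5 (13.9 CPM there) were under their values and are read as background. Dlx3 at both stages, Dlx4 at E14.5 and Dlx6 at E16.5 were not clear of them, which leaves Dlx1 and Dlx2 clear at both stages and Dlx5 at E16.5. For Dlx5 at E14.5 and Dlx4 at E16.5 the reading rests on those barcodes, which at E16.5 were split from an epithelial cluster. Endothelium-like and immune-like cells had less Dlx5 at E14.5 (7.38 CPM, 2.71 to 16.1, and 5.19, 1.69 to 12.1). At E16.5 endothelium-like cells had less Dlx4 (0.883 CPM, 0.0224 to 4.92), while the interval of immune-like cells overlapped (0.0823 to 18.1).

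Within the E14.5 epithelium, Dlx1, Dlx2 and Dlx3 were highest in the cluster led by Shh, Wif1 and Fgf4 (112 cells), a set of signals known from the enamel knot. There Dlx2 was at 103 CPM (83.7 to 126), Dlx1 at 50.1 (36.7 to 66.8) and Dlx3 at 28.3 (18.5 to 41.5). In the other 3 clusters Dlx2 was at 38.0 to 57.4 CPM, Dlx1 at 25.7 to 34.4 and Dlx3 at 6.93 to 16.2. For Dlx1 and Dlx3 the intervals reached into those of the cluster led by S100a8 and Krt15 and of the one led by mitochondrial RNA, so only the gap of Dlx2 was clear of counting error for every neighbour. Dlx3 was not clear of the erythroid-like barcodes in any of the 4 clusters. Dlx5 was not highest in the Shh cluster (20.7 CPM, against 14.7 to 26.6), and was under their value throughout.

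Within the E16.5 epithelium, one cluster stood out by its low Dlx5. In cells led by Pcp4, Crabp1 and Cldn10 (183 cells) Dlx5 was at 24.4 CPM (18.7 to 31.2), whereas it was at 98.3 to 176 CPM in the other 6 epithelial clusters. Of those 6, 2 were clear of the erythroid-like barcodes for Dlx5 (83.1 CPM, 59.9 to 112) and 4 were not. The Pcp4 cluster also had the least Dlx2 (90.6 CPM, 79.4 to 103), Dlx3 (26.7, 20.8 to 33.8) and Dlx6 (2.71, 1.09 to 5.59), but not the least Dlx1 (52.7, within the range of 38.5 to 87.2 of the others). Its Dlx3, Dlx5 and Dlx6 were under the values of the erythroid-like barcodes, and its Dlx2 was not clear of theirs (57.4 CPM, 38.4 to 82.4). For Dlx3 and Dlx6 the intervals overlapped those of the cluster led by Odam, Enpp2 and Tagln (129 cells), which had 53 and 6 UMIs of these genes. For Dlx2, Dlx3 and Dlx6 they overlapped those of a shallow cluster (199 cells, with 99.6, 43.8 and 11.9 CPM). That cluster was counted as epithelium although Sfrp2 and Prrx2, which are known from mesenchyme, led it, ahead of globin RNA. Crabp1 and Fez1 also led a cluster at E14.5, and that one had the least Dlx3 (6.93 CPM) and Dlx5 (14.7) of the epithelial clusters of its stage, both under the erythroid-like values. The highest Dlx5 was in cells led by Ppargc1a, Fat2 and Krt15 (205 cells; 176 CPM, 159.7 to 194), and the highest Dlx3 in cells led by Stmn2, Slc40a1, Vwde and Ambn (325 cells; 75.2 CPM, 66.1 to 85.1), where Ambn encodes an enamel matrix protein. Every E16.5 epithelial cluster was above every E14.5 one for Dlx4 and Dlx6, as for 2.65% of genes, and no member was below (0.505%). For both genes the E14.5 side rests on a handful of UMIs, and no epithelial cluster of either stage was clear of the erythroid-like barcodes.

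Epithelium and mesenchyme of the same stage shared a matrix and were compared directly. At E14.5 the epithelium held more Dlx1 (32.8 against 6.39 CPM; log2 ratio 1.39, 1.20 to 1.56), as 3.55% of 11557 genes were 2-fold higher. It held less Dlx6 (0.569 against 16 CPM; -1.30, -1.42 to -1.14), as 4.04% of genes were 2-fold lower. Dlx2 and Dlx3 were close between the tissues, at 0.16 (0.01 to 0.31) and 0.03 (-0.17 to 0.23), but at 2000 UMIs per cell Dlx2 was higher in the epithelium, at 0.62 (0.32 to 0.90). At E16.5 no member was 2-fold higher in the epithelium (3.35% of 12692 genes were) and Dlx4 alone was 2-fold lower (4.1%), with 8.29 against 42.2 CPM and a log2 ratio of -1.51 (-1.64 to -1.38). Dlx1 had changed sides, at -0.53 (-0.62 to -0.43), and Dlx2 was at 0.86 (0.78 to 0.94). The medians over the members were -0.28 and -0.41, against 0.01 and 0.04 over all genes.

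Ordered by level over these 5 groups, Dlx1 was highest in E16.5 mesenchyme, then in E16.5 epithelium, with E11.5 mesenchyme and E14.5 epithelium overlapping and E14.5 mesenchyme last. That last level was not clear of the erythroid-like barcodes. Dlx2 was highest in E16.5 epithelium, then in E16.5 mesenchyme, with no order read among the other 3 groups. Its E16.5 mesenchymal level was not clear of those barcodes. Dlx3 had the order E16.5 mesenchyme and E16.5 epithelium, again with no order read among the others. For Dlx3 the E16.5 epithelium was not clear of them. For Dlx4, E16.5 mesenchyme was followed by levels of at most 8.29 CPM, most of them not clear of background, which are not ranked. For Dlx5 no neighbours overlapped, in the order E16.5 mesenchyme, E16.5 epithelium, E11.5 mesenchyme, E14.5 mesenchyme and, at background by the erythroid-like barcodes, E14.5 epithelium. Dlx6 led at E11.5, followed by the mesenchyme of the later stages, which overlapped, and by the epithelium of E16.5 and E14.5. Of these later levels only that of E14.5 mesenchyme was clear of background.

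Glia and neural crest-like cells, marked by Sox10 and related genes, had a Dlx1 and Dlx2 signal of their own. Dlx1 was at 102 CPM (74.2 to 137) in 79 such cells at E11.5 and at 101 (63.2 to 153) in 44 at E14.5. Dlx2 was at 74.3 CPM (50.8 to 105) and 73.4 (41.9 to 119). At E14.5 this Dlx1 level is far above the 6.39 CPM of mesenchyme, while Dlx3 and Dlx6 had no UMI there and Dlx5 had 9.17 CPM. The groups are small, and the E11.5 cells were shallow, with a median of 1883 UMIs. Muscle-like cells at E11.5 had 27.7 CPM of Dlx5 and 8.32 of Dlx1, both with intervals that overlap those of the erythroid-like barcodes. Pericyte or smooth muscle-like cells at E16.5, 26 in number, had 43.6 CPM of Dlx5 (21.8 to 78.0), under the erythroid-like value, and 31.7 of Dlx1 (13.7 to 62.5), which was not clear of it.

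The share of a linked pair's UMIs that came from its second gene puts the divergence of partners on 1 scale. It compares cells and stages, and is no measure of the transcripts per cell of 2 different genes, since capture differs between genes. Counts were taken at the 3′ end, 1 UMI for each captured molecule, so they were not divided by gene length. In the mesenchyme Dlx2 made up 50.9% of Dlx1 and Dlx2 UMIs at the first stage (95% exact binomial interval 49.1 to 52.6), 87.5% (85.2 to 89.6) at the second and 46.7% (45.0 to 48.5) at the last. At E11.5 the balance was even across the clusters with at least 50 UMIs of the pair, from 48.7% to 56.2%, although the level itself differed several-fold. At the low end of that level, in the Plagl1 and Pax3 clusters, neither gene was clear of the erythroid-like barcodes. At E16.5 it ran from 36.3% in the Lypd1 cluster (33.8 to 39.0) to 61.1% in the Sfrp4 cluster (54.0 to 67.8), where both genes were at background levels. The epithelium had 61.0% and 71.9% at E14.5 and E16.5, and glia and neural crest-like cells 42.1% at both of their stages.

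Dlx4 made up 23.4% of Dlx3 and Dlx4 UMIs in the mesenchyme of the youngest embryos (20 to 27.0), 36.1% (31.2 to 41.1) next and 40.2% (38.0 to 42.4) in the oldest. In the 4 E16.5 mesenchymal clusters the balance lay within 38.7% to 41.9%, with intervals that all overlap, while the level of either gene varied several-fold. At the low end of that level, in the Sfrp4 cluster, Dlx3 was at background and Dlx4 was not clear of it. The epithelium was different at both stages, with 10.9% (5.77 to 18.3) and 14.4% (12.4 to 16.6). Set against the erythroid-like barcodes, its Dlx3 was not clear of background at either stage, and its Dlx4 was not clear at E14.5 and at background at E16.5. With that limit, the gap between the tissues at E16.5 was wider than the range over the mesenchymal clusters of that stage.

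Dlx6 made up 37.4% of Dlx5 and Dlx6 UMIs in E11.5 mesenchyme (36.3 to 38.6), 24.5% on day E14.5 (22.1 to 27.1) and 10.6% on day E16.5 (9.51 to 11.7). Clusters ran from 32.0% to 42.4% at E11.5 and from 19.0% to 31.0% at E14.5, where the Crym cluster was the lowest. At E16.5 they fell into 15.3% and 14.1% for the Sfrp4 and mitotic clusters and 6.16% and 5.16% for the Lypd1 and Gldn clusters. Dlx6 was not clear of the erythroid-like barcodes in E16.5 mesenchyme or in any of these clusters. Those barcodes themselves had 36.8% (21.8 to 54.0), 12.5% (3.51 to 29.0) and 8.70% (2.42 to 20.8) in order of age. The epithelium was at 2.72% (0.746 to 6.82) and 6.66% (5.71 to 7.72). Set against the erythroid-like barcodes, both genes were at background there at E14.5, and Dlx6 was not clear of it at E16.5.

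**Figure D3:**
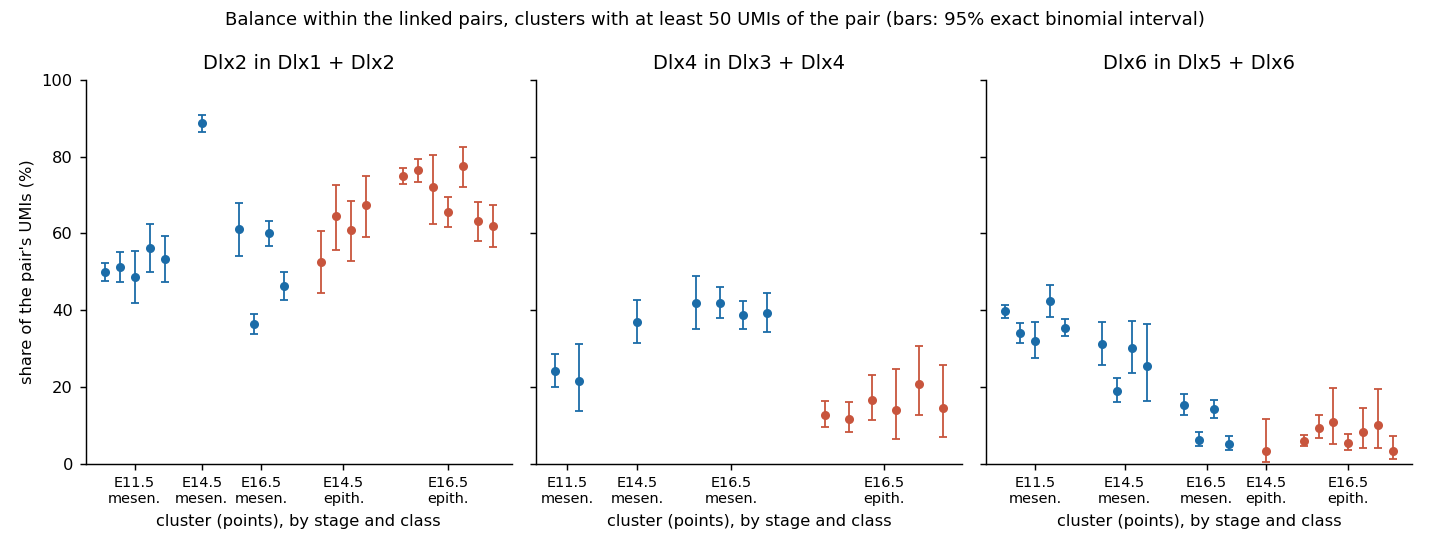
Share of a linked pair's UMIs that came from Dlx2, Dlx4 and Dlx6 (vertical axis, percent) in each mesenchymal (blue) and epithelial (red) cluster with at least 50 UMIs of the pair; bars are 95% exact binomial intervals. The E14.5 mesenchymal point of Dlx2 is at 88.7%, the Dlx4 points of E16.5 mesenchyme lie at 38.7% to 41.9%, and the Dlx6 points fall from stage to stage in the mesenchyme. At E16.5 Dlx6 was not clear of background in any mesenchymal cluster.

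RNAs that overlap or neighbour the Dlx genes were counted as genes of their own, and the deposited counts use strand, which keeps antisense RNAs apart. Dlx6os1, a long antisense RNA that spans Dlx6, parted from Dlx6 in the mesenchyme only after E14.5. Its mesenchymal levels were 56.5, 18.3 and 190.4 CPM in order of age, and in the E16.5 Lypd1 cluster it reached 525 CPM, where Dlx6 had 12.4. From E11.5 to E14.5 both RNAs were lower, with log2 ratios of -1.23 for Dlx6os1 and -1.46 for Dlx6. The log2 ratio of Dlx6os1 from E14.5 to E16.5 was 2.82 (2.71 to 2.93), against 0.06 for Dlx6 and 1.39 for Dlx5. At E16.5 Dlx6 was not clear of the erythroid-like barcodes in the mesenchyme or in the Lypd1 cluster. In the epithelium Dlx6os1 was at 1.71 and 25.0 CPM (log2 ratio 1.58). Dlx6 was higher at E16.5 there too (0.81), but clear of those barcodes at neither stage. Dlx4os, antisense to Dlx4, went from 3.64 to 25.2 CPM in the mesenchyme between the later stages (log2 ratio 1.37), close to the 1.57 of Dlx4. Dlx1as, antisense to Dlx1, was at 6.15, 13.3 and 10.1 CPM and thus had its highest mesenchymal level at the stage at which Dlx1 had its lowest. In the E14.5 Crym cluster it was at 31.1 CPM (27.2 to 35.4), beside 13.1 of Dlx1 and 103 of Dlx2. Metap1d, the neighbour of Dlx1, which encodes an aminopeptidase, was at 18.7, 26.6 and 37.2 CPM and had no dip at E14.5. Dlx6os2, another RNA of the Dlx6 locus, was not analysed here.

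How many members a single cell carried was compared at 2000 UMIs per cell. In the mesenchyme 34.8% of cells held a UMI of at least 1 Dlx gene at the first stage, 19.0% at the second and 50.6% at the last. At least 2 of the genes were seen in 7.75%, 1.98% and 18.7%, and at least 3 in 0.847%, 0.127% and 4.58%. The E16.5 Lypd1 cluster had the highest values of any cluster, 73.7%, 34.2% and 8.89%. In the E14.5 Osr1 cluster 3.62% of cells held 1 member and none of 387 held 2, which allows a share of up to 0.949%. The epithelium had 21.9% and 50.7% with at least 1 gene at E14.5 and E16.5, and 2.26% and 15.0% with at least 2. Endothelium-like cells had 3.70%, 4.65% and 6.90% with at least 1 gene. Erythroid-like barcodes had 10.7%, 11.9% and 26.2%. The Osr1 cluster was therefore not above the background of its stage, nor was the Sst cluster (9.78%). Shares of the mitotic cluster (12.4%, 10.0 to 15.1) and the Ibsp cluster (15.5%, 13.5 to 17.7) overlapped that of the erythroid-like barcodes (7.08 to 18.4). The E14.5 mesenchyme as a whole (17.8 to 20.3) overlapped it too. At least 2 genes were seen in 0%, 0.699% (0.0177 to 3.83) and 9.52% (2.66 to 22.6) of those barcodes. Mesenchyme and epithelium overlapped these shares at E14.5 and E16.5, but the Lypd1 cluster did not (30.4 to 38.2). For at least 3 genes both tissues, and the Lypd1 cluster, overlapped the E16.5 barcodes (2.38%, 0.0603 to 12.6).

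**Figure D4:**
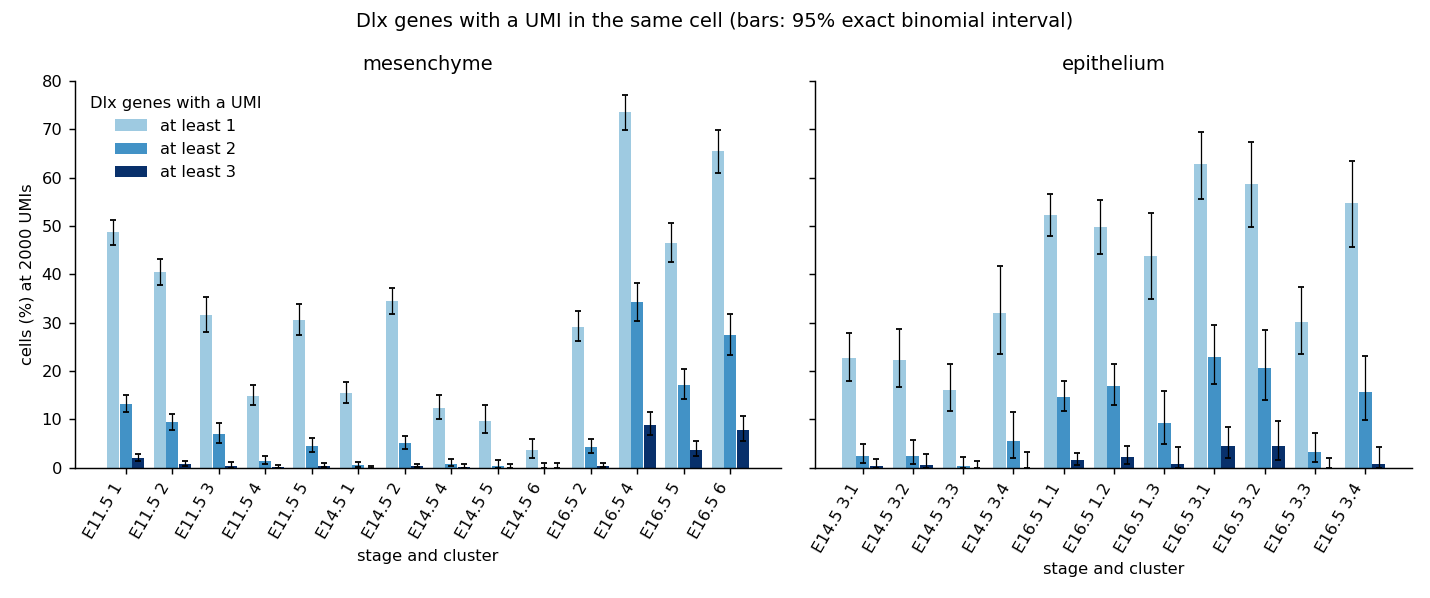
Share of cells (vertical axis, percent) with a UMI of at least 1, 2 or 3 Dlx genes after thinning to 2000 UMIs, for each mesenchymal and epithelial cluster with enough cells; bars start at 0 and thin lines are 95% exact binomial intervals. The E16.5 mesenchymal cluster 4 reaches 73.7%, 34.2% and 8.89%, and no cluster of E14.5 exceeds 34.5% for 1 gene.

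Whether linked genes were caught in the same cell more often than their levels give was asked within clusters. The number of cells with UMIs of both genes was divided by the number that the shares of the 2 genes give if they are independent inside each cluster, at 2000 UMIs per cell. Pairs with an expected number under 5 were not read. In E11.5 mesenchyme Dlx5 and Dlx6 were found together in 143 of 5434 cells, against 107 expected, a ratio of 1.33 (95% Poisson interval 1.12 to 1.57). Over all cells of this group at once, without regard to cluster, 14.9% of cells with Dlx5 also had Dlx6, against 8.88% of cells without Dlx5. Differences in level between clusters enter these 2 shares but not the ratio. Over all gene pairs of this group, 1.09% had an interval above 1 and 0.86% below. Dlx1 and Dlx2 were together in 39 cells against 32.0 expected, a ratio of 1.22 (0.867 to 1.67). Dlx3 and Dlx4 were below the floor, with 0.789 expected. Over 20 draws of the thinning this pair had a mean of 4.5 cells against 0.936 expected, a ratio of 4.81 (1.36 to 7.71 between draws). Its interval lay above 1 in 13 draws, but on so few expected cells the pair is not read.

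Among pairs past the floor the excess was not particular to linked genes. In the same cells Dlx1 with Dlx3 (ratio 1.90, 1.06 to 3.14) and Dlx2 with Dlx5 (1.27, 1.03 to 1.55) also had intervals above 1, so the count was 1 of 2 linked and 2 of 9 other Dlx pairs that passed the floor. Over 20 draws of the thinning those pairs had means of 1.34 and 1.13, each with the interval above 1 in 2 draws. The excess of the linked pair was not stable between draws either: the mean ratio of Dlx5 and Dlx6 was 1.16, from 1.07 to 1.36, and the interval lay above 1 in 4 of them. It was above 1 in 2 of 20 draws for Dlx1 and Dlx2. For comparison, Msx1 and Msx2, homeobox genes that are not linked to each other, had a mean ratio of 1.30, with the interval above 1 in 17 draws. Dlx6os1 and Dlx5, which share a locus, had 1.22, above 1 in 11 draws.

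At E14.5 Dlx5 and Dlx6 were the only linked pair with enough expected cells in the mesenchyme, at 7 observed and 11.8 expected (ratio 0.59, 0.24 to 1.22; 1.06% of all pairs were above 1 and 0.791% below). Their mean over 20 draws was 1.04. At E16.5 the 3 linked pairs had ratios of 1.24 (0.99 to 1.52) for Dlx1 and Dlx2, 1.29 (0.92 to 1.78) for Dlx3 and Dlx4 and 1.33 (0.82 to 2.04) for Dlx5 and Dlx6, and none of the intervals lay above 1 (1.01% of all pairs did, and 0.755% were below). The other 11 Dlx pairs past the floor ran from 0.759 to 1.25. In 20 draws the linked means were 1.21, 1.29 and 1.25, with the interval above 1 in 6, 4 and 2 draws. The means of the 11 other pairs were lower, from 0.74 to 1.19, but their ranges over the draws overlapped those of the linked pairs. Taken over all E16.5 mesenchymal cells at once, without regard to cluster, the ratio of Dlx1 and Dlx2 was 1.78 (1.43 to 2.20).

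In the epithelium Dlx1 and Dlx2 were together in 12 cells at E14.5 against 6.38 expected (1.88, 0.97 to 3.29), where 0.533% of all pairs were above 1 and 0.439% below, and in 45 against 41.1 at E16.5 (1.10, 0.80 to 1.47), where 0.846% were above and 0.613% below. Dlx5 and Dlx6 had 13 against 6.92 at E16.5 (1.88, lower bound 1.0). In 20 draws the means were 1.83 for the E14.5 pair, with the interval above 1 in 9, and 1.03 and 1.22 for the E16.5 pairs.

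**Figure D5:**
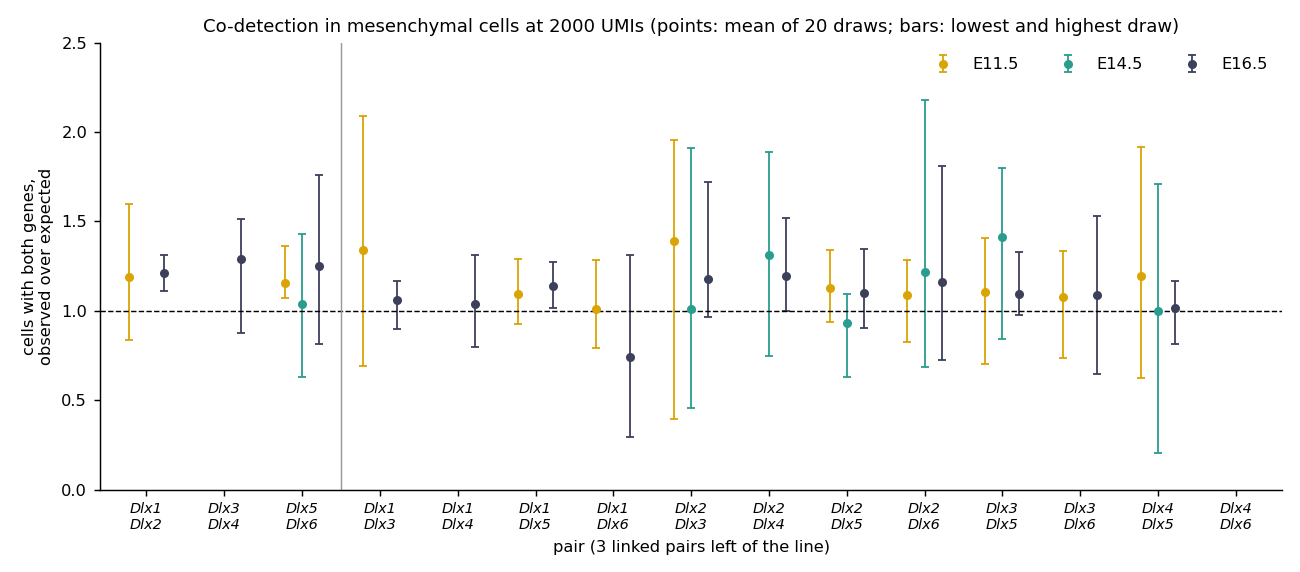
Observed over expected number of mesenchymal cells with both genes of a pair (vertical axis; 1 is the number expected from the shares inside each cluster) for the 15 pairs of Dlx genes at 2000 UMIs per cell; points are means of 20 draws and bars the lowest and highest draw, shown where 5 or more cells were expected. The 3 linked pairs, left of the line, have means from 1.04 to 1.29, and over all stages the pairs to the right run both lower and higher. At E16.5 alone the linked means, 1.21 to 1.29, lie above the 0.74 to 1.19 of the 11 others, with draws that overlap.

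Genes around the Dlx code in jaw, bone and enamel give the setting of these levels. Of the jaw patterning list, which holds the endothelin receptor Ednra, its targets Hand1, Hand2 and Gsc, and others, 13 of 14 were compared in the mesenchyme from E11.5 to E14.5. There 6 were past 2-fold lower (Hand1, Gsc, Pitx1, Gbx2, Barx1 and Nr2f1) and 1 higher (Mef2c), with a median log2 ratio of -0.49. Gsc was at 108 CPM at E11.5 and 9.02 at E14.5, and Barx1 at 362 and 4.54, beside the lower levels of Dlx1 and Dlx6. Whole mandible and incisor bud are the tissues compared here. Between E14.5 and E16.5 only Pitx1 of 11 passed the limit, downwards, and the median was -0.28, while 4 Dlx genes were higher.

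The osteogenic list, which includes Runx2 and Sp7, regulators of bone formation, behaved otherwise. From E11.5 to E14.5, 5 of 6 compared genes were more than 2-fold higher (median 2.33), among them Alpl, which encodes a phosphatase of mineralisation, at 1.17 and 69.8 CPM. From E14.5 to E16.5, when Dlx3, Dlx4 and Dlx5 were 2-fold higher, 1 of 6 was higher (Msx2) and 1 lower (Spp1), with a median of 0.11. Of the dental epithelium list, 2 of 8 compared genes were higher in the epithelium from E14.5 to E16.5, Ambn and Trp63, with a median of 0.42, beside the 3 members. Ambn was not particular to the epithelium: its log2 ratio was 1.24 there (3 and 279 UMIs) and 1.64 in the mesenchyme (149 and 882 UMIs; 8.35 and 47.3 CPM), which left the E16.5 epithelium lower than the mesenchyme (-1.22, -1.35 to -1.09). In E16.5 mesenchyme Ambn was highest in the Lypd1 cluster (120 CPM), where Dlx1 to Dlx4 were highest too. Amelx and Klk4, enamel genes of later stages, stayed at or below 0.209 CPM in epithelium and mesenchyme at both stages. Msx2, a homeobox gene that acts with Dlx genes in tooth and bone, was 2-fold higher in both tissues from E14.5 to E16.5, at 16.4 and 93.1 CPM in the mesenchyme and 24.9 and 166 CPM in the epithelium, whereas Msx1 was not (333 and 367 CPM in the mesenchyme, 28.4 and 24.3 in the epithelium).

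Between members, likeness of pattern was measured as Pearson's r of log2(CPM + 10) among 12157 genes. It was taken over 31 clusters of at least 50 cells, which are not all the clusters of that size. Left out were mesenchymal clusters 3 and 6.1 of E11.5 and 10 of E14.5. Epithelial clusters 3.2 of E14.5 and 1.3 and 3.2 of E16.5 were left out as well. The clusters share 3 matrices and r is given as a description. Linked genes had an r of 0.86 for Dlx1 and Dlx2, 0.82 for Dlx3 and Dlx4 and 0.57 for Dlx5 and Dlx6. The highest r between any 2 members was that of Dlx2 and Dlx3, 0.87, which are not linked. Dlx6 stood apart from Dlx1, Dlx2, Dlx3 and Dlx4, with an r from -0.03 to 0.29. Levels at background, or not clear of it, enter these values. For Dlx6 no epithelial cluster and no E16.5 mesenchymal cluster was clear of the erythroid-like barcodes. Among all genes, those most like Dlx1 were Dlx2, Thtpa (0.77) and Dlx6os1 (0.77), and those most like Dlx2 were Dlx3, Dlx1 and Msx2 (0.82). For Dlx3 they were Dlx2, Dlx4os (0.85) and Kazald1 (0.83), and for Dlx4 they were Dlx4os (0.92), Plppr1 (0.91) and Tcf7 (0.88). For Dlx5 they were Dlx6os1 (0.85), Lrrc42 (0.81) and Asb13 (0.79), and for Dlx6 they were Tshz1 (0.85), Lix1 (0.85) and Dnm3os (0.84).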

How the data were processed

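Single-cell libraries (10x Chromium 3′) of wild-type NMRI embryos at 3 stages were analysed from the UMI counts that the authors deposited, made with Cell Ranger 4.0.0 on mm10 per the labels. Each stage was 1 matrix with no map of barcodes to samples, so no test was run and all intervals cover counting error only. Barcodes were kept from 700 genes upwards if mitochondrial UMIs were 20% or less, and were clustered per stage in R 4.3.3 with Seurat 5.3.0 and sctransform 0.4.2 (2000 variable genes without the Dlx genes and the RNAs of their loci, 20 principal components, Leiden at resolution 0.4), and named from marker lists by a rule that was set, and later revised, with the data in view. A cluster that met no name or more than 1 was split by a second pass. Named genes were the members, the RNAs of their loci, jaw, osteogenic, dental epithelium and Msx lists, the 3 genes most like each member, and up to 5 leading genes of a cluster. Members and lists were chosen with earlier results of these data known, and 1 listed gene is not reported here. Scrublet in scanpy 1.11.5 called 0, 0 and 2 cells, so the caller did not work and doublets stayed in the main values. Scripts were tested on simulated counts. Homeoboxes were cut by a script from GENCODE vM21 transcripts (GRCm38) as 60 codons placed by the conserved tryptophan of the homeodomain. Alternatives covered the filter on cells, depth, resolution, pseudocount, count minimum and doublet score.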

Additional observations from a re-analysis of the deposited data

How the results depend on the processing

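The count of Dlx genes past 2-fold kept to within 1.5 times the main value in 42 of 45 recalculations. The exceptions came with 1 CPM in place of 10 added to both sides: 4 members (1 higher, 3 lower) in the mesenchyme from E11.5 to E14.5, 5 (all higher) in the epithelium from E14.5 to E16.5, and 4 (1 higher, 3 lower) between epithelium and mesenchyme at E14.5. The shares of all genes given above hold for 10 CPM only. With 1 CPM more low genes of any kind can pass, so these counts are not read as a result about the members. Of 270 log2 ratios of single members, 1 whose main interval lay on 1 side of 0 changed sign, that of Dlx2 in the mesenchyme from E11.5 to E14.5, which was -0.11 with cells thinned to 2000 UMIs and 0.20 otherwise, and 41 moved beyond their counting interval. Of 103 pair balances 6 moved, all with thinned cells, and of 90 co-detection ratios 8 moved. The ratio of Dlx5 and Dlx6 in E11.5 mesenchyme was 1.12 at 3000 UMIs per cell and 1.08 with random seed 23, and at E14.5 it was 1.28 at 1000 UMIs and 1.25 with seed 23. At 1000 UMIs, Dlx1 with Dlx2 and Dlx3 with Dlx4 had ratios of 0 at E14.5. In the mesenchyme these pairs had only 4.08 and 1.16 cells expected even at 2000 UMIs, under the floor, so the ratios of 0 are not read. Dlx1 with Dlx2 at E16.5 had 0.85 at 1000 UMIs, against 1.24 in the mesenchyme at 2000 UMIs. With the expected number taken over all mesenchymal cells, that pair had 1.78. Other seeds and leaving out clusters led by globin, mitochondrial or ribosomal RNA were chosen after seeing the data. No paired analysis was possible because the barcodes carry no sample or replicate and each stage is 1 matrix. Depth limits co-detection, since 2000 UMIs per cell leave few cells with both genes of a pair, and epithelium at E11.5 could not be described.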
